A study of Epinephelus fuscoguttatus x Epinephelus lanceolatus with 9 samples.

Results

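The genes of the Wnt and Notch signalling pathways were examined in intestinal RNA of pearl gentian grouper, which is bred by crossing Epinephelus fuscoguttatus with Epinephelus lanceolatus. They were chosen by symbol, from a pattern covering Wnt ligands, Frizzled and Lrp receptors, R-spondins and their receptors and ligases, secreted Wnt inhibitors, the destruction complex, beta-catenin with its TCF partners, Notch receptors and ligands, and the Hes and Hey repressors. Of the 22344 genes in the deposited count table, 71 matched. The 8101 genes that carry only a bare LOC number could not match, so any pathway member among them was not analysed here, and lgr5 and rnf43, which the pattern also names, have no row under those symbols.

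RNA sequencing gave 9 intestinal libraries, 3 each from the groups FM, SBM and Drug. Fish meal and soybean meal are often written FM and SBM in work on fish feed, and the series title names the medicinal herb Lithospermum erythrorhizon, but the labels spell out none of the groups and give no dose, duration, age or gut segment. No label ties a library to an individual fish, so the p-values measure how these libraries vary, which may not be how individual fish vary.

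In the Wnt pathway a secreted ligand binds a Frizzled receptor and an Lrp co-receptor, which stops the destruction complex from breaking down beta-catenin, and beta-catenin then drives transcription with TCF factors. R-spondins strengthen the signal by removing the ligases that clear Frizzled from the cell surface. In Notch signalling a Delta or Jagged ligand on one cell makes the receptor on its neighbour release an intracellular fragment that turns on repressor genes of the Hes and Hey family. In the gut epithelium of mammals and zebrafish, Wnt signalling maintains dividing progenitors, and Notch signalling decides between absorptive and secretory fates.

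Total counts ran from 32.9 to 35.5 M per library, and the pathway genes held 0.0626% to 0.0922% of them. The intestinal markers fabp2, the gut fatty acid binding protein, and cdh17, a gut cadherin, were present in every library, with fabp2 at 402 to 6598 CPM (counts scaled to a common library size) and cdh17 at 797 to 1900 CPM. FM replicate 3 also held liver transcripts: 14 hepatocyte genes summed to 22360 CPM there and to 53.6 to 755 CPM in the other libraries. Immediate early genes, which respond within minutes to stimuli such as handling, summed to 2610 CPM in SBM replicate 1 and to 399 to 983 CPM elsewhere. A list of 26 cell cycle genes summed to 121 to 170 CPM in FM, 219 to 370 CPM in SBM and 397 to 674 CPM in Drug. The list's median log2(CPM + 1) was 0.776 to 0.980 in FM, 0.929, 3.32 and 2.32 in SBM, and 3.93, 2.81 and 2.05 in Drug. On that measure SBM replicate 1 lay within FM, and SBM replicate 2 above Drug replicates 2 and 3. Of the genes in this list 9 of 26 rose with edgeR in Drug vs FM, where 2.86% of all genes did. None passed in SBM vs FM or Drug vs SBM. An unadjusted p under 0.05 was found for 21 in SBM vs FM, 6 in Drug vs SBM and 25 in Drug vs FM. Over all genes the shares were 20.5%, 13.1% and 23.8%. DESeq2 called 14 higher in SBM vs FM, 3 in Drug vs SBM and 25 in Drug vs FM. It called 8.83%, 3.85% and 13.1% of all genes in either direction. In whole tissue, fewer cells of a type and less RNA per cell cannot be told apart.

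Levels of different genes were compared in FPKM, the authors' deposited values per gene length and depth. Beta-catenin (ctnnb1) was the most abundant pathway gene, with a mean of 36.4 FPKM over the 9 libraries and a range of 27.6 to 50.95 FPKM. Its transcription partner tcf7l2 followed at 10.8 FPKM, the Notch-regulated repressor her6 at 10.7 FPKM, the scaffold apc at 10.3 FPKM and the Wnt feedback gene axin2 at 10.1 FPKM. The ranges of these 4 genes over the libraries overlapped, so their order is not resolved. In all, 9 of the 71 genes had a mean of at least 5 FPKM and 20 lay under 0.1 FPKM.

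Most of the low genes were ligands. Among 18 Wnt ligands, wnt5a, which mainly signals without beta-catenin, made up 59.9% of the summed FPKM and wnt2ba, related to a Wnt of the mammalian gut mesenchyme, 27.0%. A further 13 Wnt ligands had too few counts to be tested, and 12 of those stayed under 10 counts in every library, wnt1, wnt3a and wnt10b among them. The exception was wnt9a, with 220 counts in FM replicate 3. The TCF family factor lef1 was close to absent, with 20 counts over the 9 libraries and none in FM replicate 1, FM replicate 2 and Drug replicate 3, where a count of 0 allows up to 3 counts, or 0.0821, 0.0791 and 0.0881 CPM.

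Other roles were spread over several genes. The Notch receptors notch2, notch1a and notch3 had mean levels of 2.99, 2.33 and 1.94 FPKM, and the partly named notchl was at 0.778 FPKM. Among ligands dlc led at 6.28 FPKM, ahead of dll4 at 3.47 FPKM and jag1b at 2.34 FPKM. The co-receptor lrp5 stood at 7.26 FPKM against 1.62 FPKM for lrp6, and their ranges did not overlap (6.36 to 8.08 and 1.26 to 2.41 FPKM). Among the Frizzled receptors fzd5 was the highest at 3.15 FPKM. Symbols ctnnbl1 and jagn1a match the pattern by spelling, but are known for a splicing-associated protein and an endoplasmic reticulum protein. With ctnnbl1 at 5.91 FPKM and jagn1a at 0.101 FPKM, they are counted among the 71 genes and described no further.

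**Figure D1:**
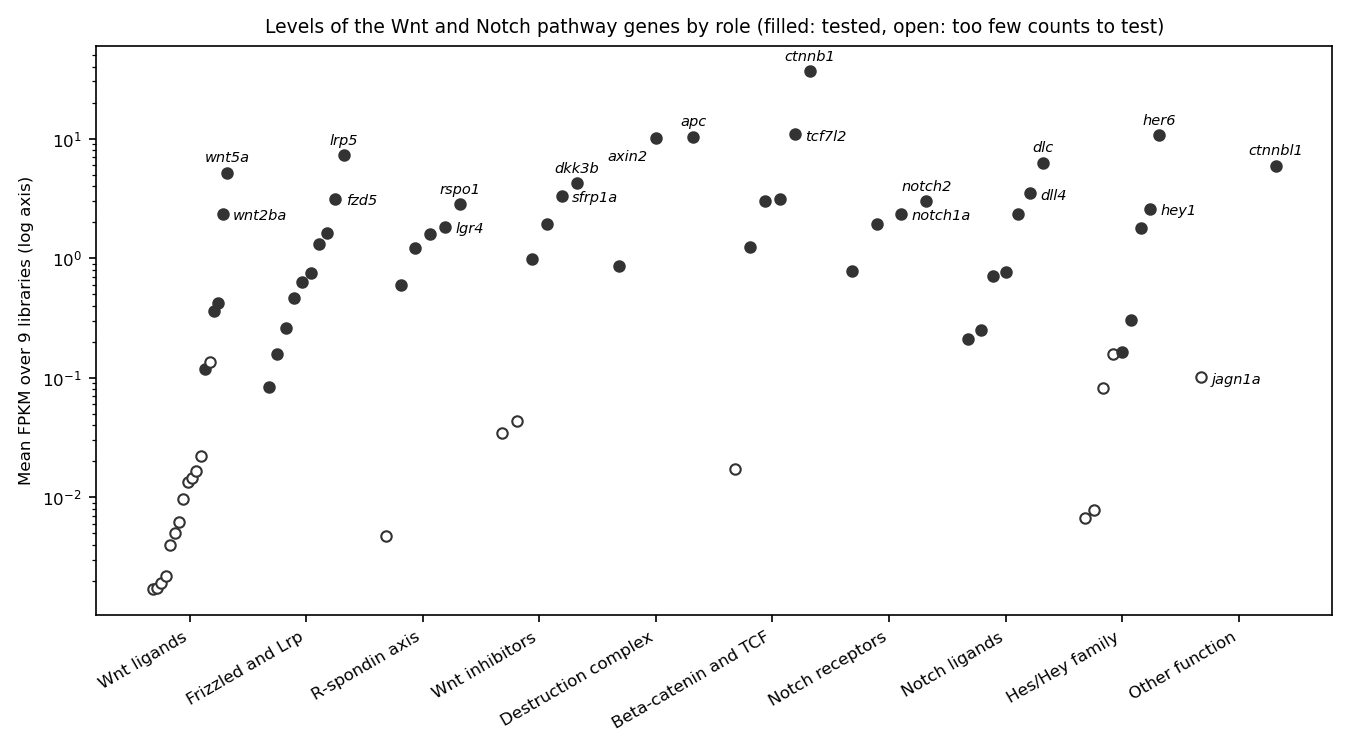
Mean FPKM over 9 libraries (log axis) of each of the 71 genes, arranged by role, with filled points for the 49 genes tested and open points for the 22 with too few counts. The highest point is ctnnb1 at 36.4 FPKM, and the open points lie mostly among the Wnt ligands.

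Differences between groups were tested with edgeR's quasi-likelihood test over 17731 genes, with Benjamini-Hochberg adjustment and a threshold of 0.05. A total of 49 of the 71 pathway genes had enough counts to enter it. Hey1 was the single pathway gene that passed, in both comparisons with Drug. In SBM vs FM none of 49 passed with edgeR, where 0.592% of all genes did (0.446% higher and 0.147% lower), while 12 had an unadjusted p under 0.05 (20.5% of all genes), DESeq2 called 5, and limma on FPKM values called none. With the replicate number as a block none of 49 passed there either, and the count over all genes was 295 in place of 105. In Drug vs SBM 1 of 49 fell and none rose, 2.04% beside 0.0395% of all genes (0% higher and 0.0395% lower), and 6 had an unadjusted p under 0.05 (13.1% of all genes). DESeq2 called the same gene there and no other of the pathway. In Drug vs FM 1 of 49 fell and none rose, 2.04% beside 4.38% of all genes (2.86% higher and 1.52% lower), and 10 had an unadjusted p under 0.05 (23.8% of all genes), against 7 called by DESeq2.

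DESeq2 called 9.43% of the pathway genes it tested in SBM vs FM, 2.17% in Drug vs SBM and 13.2% in Drug vs FM, beside 8.83%, 3.85% and 13.1% of all genes. These shares lie close to those of all genes. Libraries of the groups did not overlap in 12, 9 and 12 of the 49 genes, which is 24.5%, 18.4% and 24.5% beside 22.8%, 19.9% and 32.8% of all genes. Of the 12 in SBM vs FM, 2 were higher and 10 lower (all genes 11.1% and 11.7%), and in Drug vs SBM 4 were higher and 5 lower (9.2% and 10.7%). In Drug vs FM all 12 were lower in Drug, where 16.6% of all genes were higher and 16.2% lower without overlap. The median log2 fold change of the 49 genes was -0.11 in SBM vs FM, -0.06 in Drug vs SBM and -0.18 in Drug vs FM, and over all genes 0.01, -0.01 and -0.04. These medians depend on the scaling. With library totals alone, those of the 49 genes were -0.30, 0.05 and -0.26, and the medians over all genes were not computed on that scale. The comparisons share libraries, so their values are not independent of each other.

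**Figure D2:**
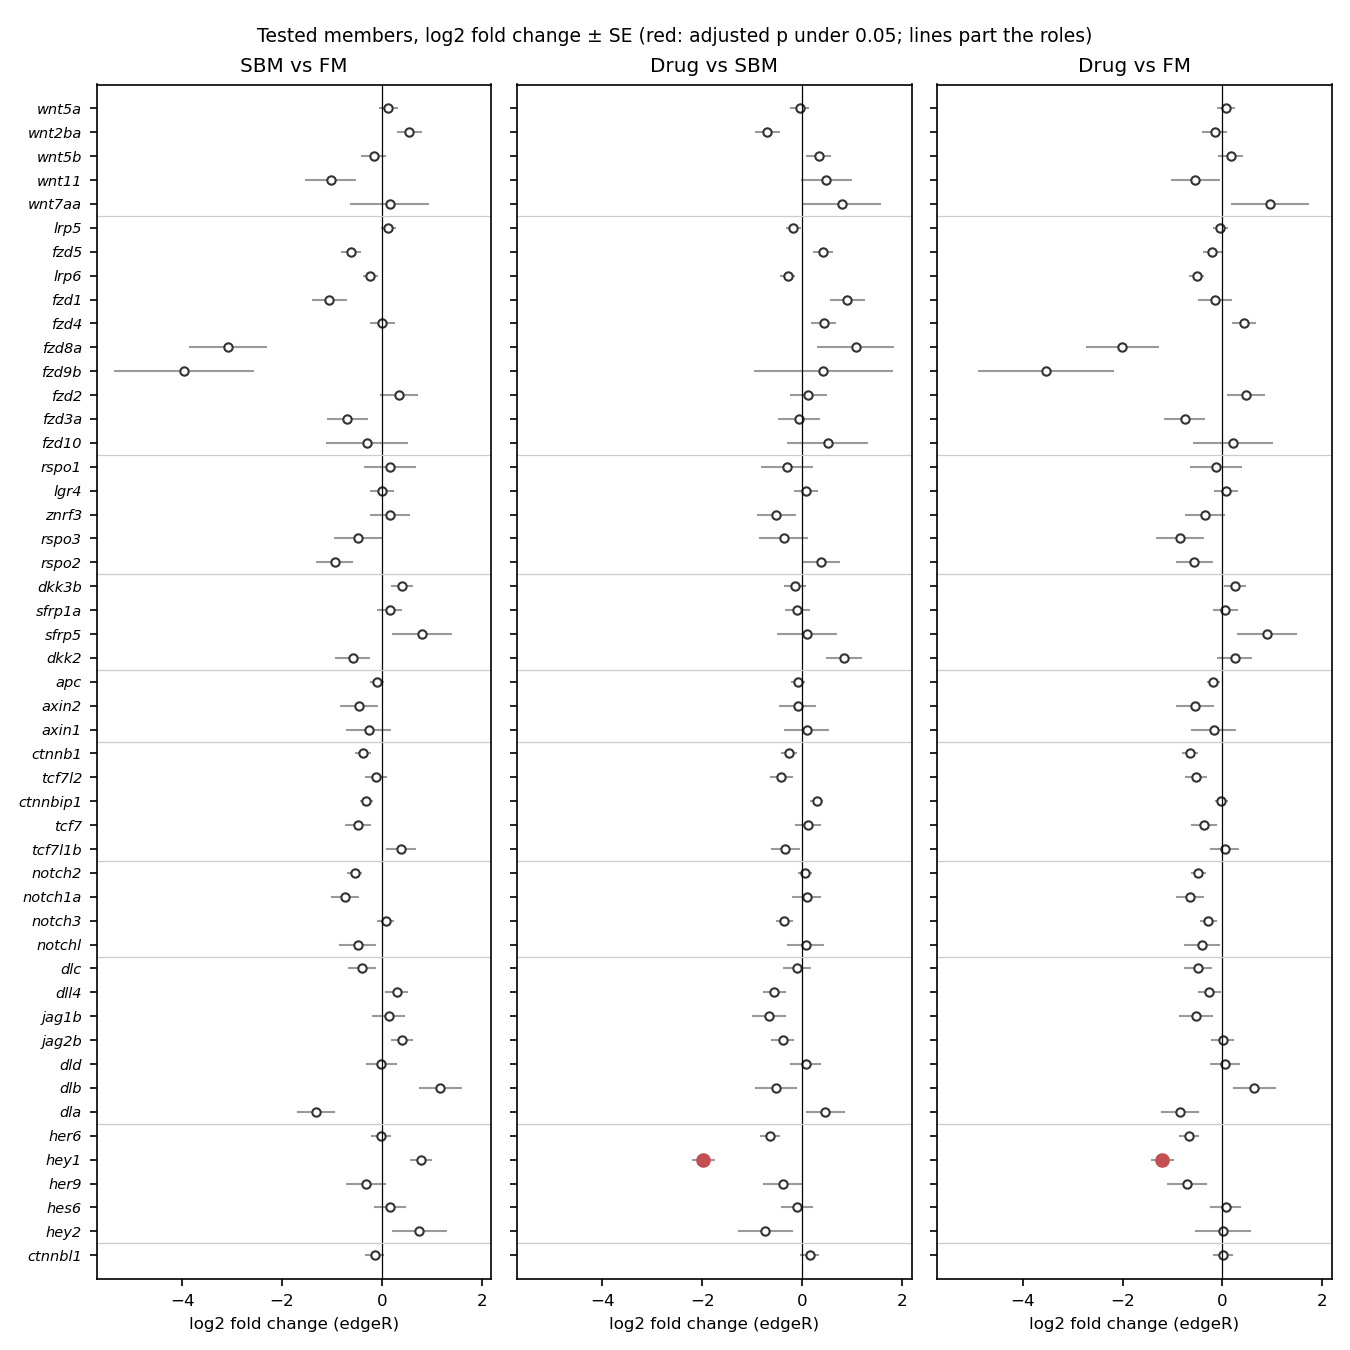
Log2 fold change (edgeR, x axis) with its SE for each of the 49 tested genes (y axis, grouped by role) in SBM vs FM, Drug vs SBM and Drug vs FM. Hey1 is the only red point, at -1.98 in Drug vs SBM and -1.21 in Drug vs FM, and the widest bars belong to fzd9b.

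Hey1 encodes a transcriptional repressor that Notch switches on directly, best known from blood vessels and the heart. It was at 5.44, 6.28 and 4.30 CPM in FM replicates 1 to 3, at 9.59, 7.44 and 10.5 CPM in SBM, and at 2.02, 2.37 and 2.55 CPM in Drug. All 3 groups stood apart from each other, with SBM the highest and Drug the lowest. Of the 49 pathway genes hey1 alone had 3 groups that did not overlap at all, 2.04% of them, beside 2.71% of all genes tested. These levels rest on 71 to 87 reads per library in Drug, 146 to 238 in FM and 259 to 351 in SBM.

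From SBM to Drug hey1 fell 3.95-fold, from 9.16 ± 1.55 to 2.32 ± 0.273 CPM (SD, n = 3), a log2 fold change of -1.98 (SE 0.23, edgeR adjusted p = 0.0426). From FM, at 5.34 ± 0.991 CPM, to Drug it fell 2.31-fold (log2 fold change -1.21, SE 0.23, edgeR adjusted p = 0.0271). Between FM and SBM the log2 fold change was 0.78 (SE 0.22), which did not pass with edgeR (adjusted p = 0.118) and passed with DESeq2 (adjusted p = 0.0240).

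The size of the hey1 differences changed little with the libraries used, but the edgeR call did. In Drug vs SBM the log2 fold change stayed between -2.10 and -1.88 when any library was left out. Its adjusted p was 0.0470 without SBM replicate 1, and above 0.05 without any one of the others: 0.137 without FM replicate 1, 0.137 without FM replicate 2, 0.0591 without FM replicate 3, 0.0803 without SBM replicate 2, 0.204 without SBM replicate 3, and 0.144, 0.172 and 0.265 when Drug replicate 1, 2 or 3 was left out. It was 0.157 on the 2 groups alone, 0.0894 with library totals as the scale, 0.0582 on log2(FPKM + 1), where the log2 fold change was -1.25, and 0.0619 on log2(FPKM + 0.1). In all, the call held in 8 of 21 alternative analyses. In Drug vs FM the log2 fold change without any one library was -1.34 to -1.07. The call was lost without FM replicate 1 (adjusted p = 0.0804), FM replicate 2 (0.110), SBM replicate 3 (0.0527), Drug replicate 1 (0.101), Drug replicate 2 (0.0748) or Drug replicate 3 (0.0864), and the log2 fold change was -0.79 on log2(FPKM + 1).

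Values of cell type lists and of immediate early genes are given beside hey1, and their part in its differences was not tested. A list of 19 endothelial genes summed to 341 to 421 CPM in FM, 388 to 485 CPM in SBM and 308 to 401 CPM in Drug, and none of its 18 tested genes passed with edgeR in any comparison. At an unadjusted p under 0.05 there were 2 in SBM vs FM, 3 in Drug vs SBM and 1 in Drug vs FM. The shares of all genes were 20.5%, 13.1% and 23.8%. DESeq2 called none, 1 lower and 1 lower. The list's median log2 fold change was 0.12 in SBM vs FM, -0.24 in Drug vs SBM and -0.13 in Drug vs FM. Plvapa, of vessel diaphragms and the most abundant of the list, was at 156 to 172 CPM in FM, 183 to 227 CPM in SBM and 139.8 to 199 CPM in Drug. Kdrl, a vascular growth factor receptor, was at 47.8 to 54.9 CPM in FM, 41.3 to 69.5 CPM in SBM and 39.5 to 50.6 CPM in Drug. In SBM vs FM and Drug vs SBM, list medians were 0.57 and -0.53 in smooth muscle and 0.40 and -0.32 in enteric nerve and glia. They were 0.30 and -0.18 in mesenchyme, and -0.47 and 0.05 in leukocytes. The first 3 of these lists thus had medians of the same signs as the endothelial list, and leukocytes had the opposite signs. The enteroendocrine (0.68 and -0.15) and stem and progenitor (0.10 and -0.20) lists also had the endothelial signs. Enterocyte (0.81 and 0.97), lysosome-rich enterocyte (-0.22 and -0.64) and secretory lineage (-0.33 and 0.05) lists did not. Like the medians of the pathway genes, list medians depend on the scaling, and no other scaling was used for them. Of the 15 immediate early genes none passed with edgeR, 8 in SBM vs FM, 6 in Drug vs SBM and 3 in Drug vs FM had an unadjusted p under 0.05, and DESeq2 called 3 higher and 1 lower, 4 lower, and none. Their median log2 fold change was 1.04 in SBM vs FM, -0.93 in Drug vs SBM and -0.47 in Drug vs FM. They summed to 2610, 624 and 983 CPM in SBM replicates 1 to 3, 554 to 669.5 CPM in FM and 399 to 662 CPM in Drug. SBM replicate 2 thus lay within the ranges of both other groups.

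**Figure D3:**
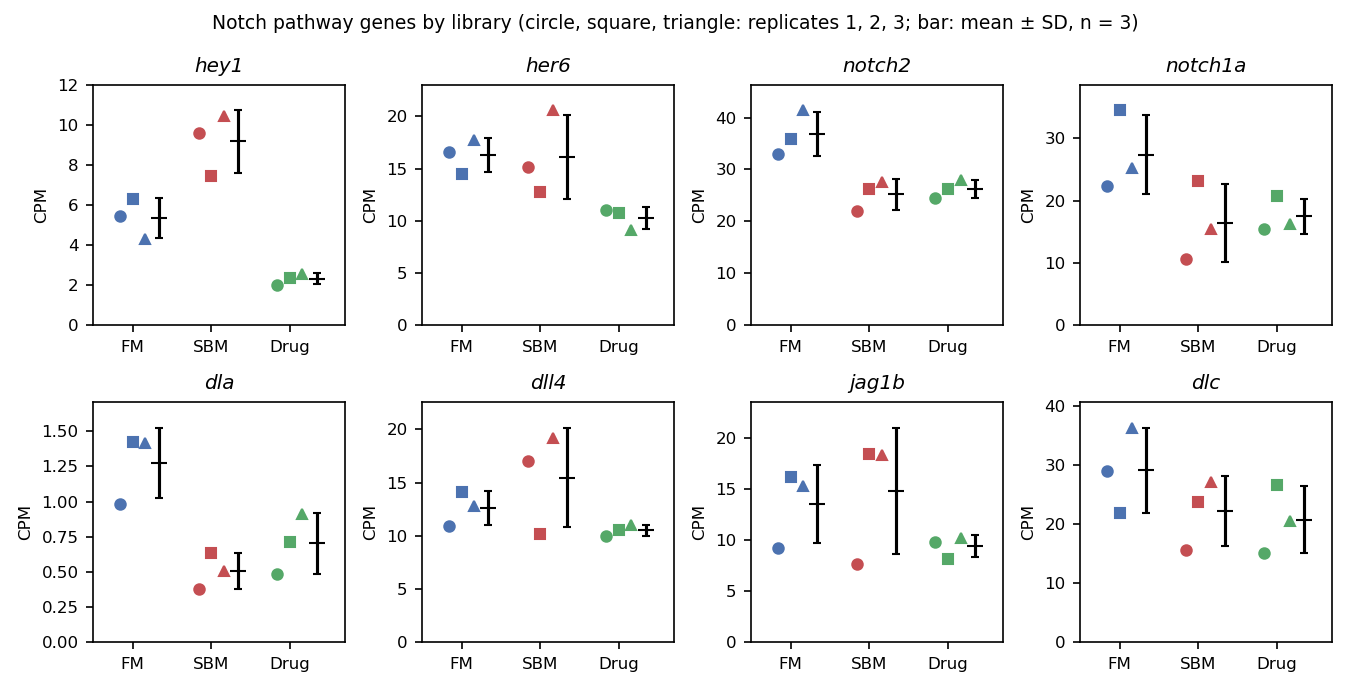
CPM (y axis) of 8 Notch pathway genes in each library of FM, SBM and Drug, with the mean ± SD of 3 libraries beside each group. Hey1 separates the 3 groups, her6 has its lowest 3 values in Drug, and notch2 has its highest 3 in FM.

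The other repressors of the family did not pass. Her6, the fish relative of mammalian Hes1, was at 16.6, 14.5 and 17.7 CPM in FM, 15.2, 12.7 and 20.6 CPM in SBM, and 11.1, 10.7 and 9.07 CPM in Drug. Every Drug library lay below every FM and SBM library, with a log2 fold change of -0.65 (SE 0.20, edgeR adjusted p = 0.239) from SBM and -0.66 (SE 0.20, adjusted p = 0.0919) from FM, the latter passing with DESeq2 (adjusted p = 0.0373). Her9, a related repressor, was at 1.35 to 3.202 CPM in Drug and 2.35 to 5.13 CPM in FM, and those ranges overlap. Hes6, which in mammals counteracts Hes1, stayed at 0.682 to 1.09 CPM in all 9 libraries. Hey2 was at 0.199 to 0.903 CPM. The other 4 genes of the family (heyl, her13, her8.2 and hes2.1) had at most 23 counts in a library and were not tested.

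None of the 4 Notch receptors passed with edgeR. An unadjusted p under 0.05 was found for 2 in SBM vs FM, none in Drug vs SBM and 2 in Drug vs FM. Of all genes 20.5%, 13.1% and 23.8% had one. Notch2 was at 33.05, 35.8 and 41.4 CPM in FM, 21.9, 26.2 and 27.6 CPM in SBM, and 24.6, 26.3 and 27.98 CPM in Drug. No FM library overlapped either of the other groups, which overlapped each other. The log2 fold change was -0.54 (SE 0.15, edgeR adjusted p = 0.108) in SBM vs FM and -0.48 (SE 0.15, adjusted p = 0.0940) in Drug vs FM, and DESeq2 called both (adjusted p = 0.0200 and 0.0368). Notch1a was at 22.4, 34.5 and 25.2 CPM in FM, 10.6, 23.1 and 15.4 CPM in SBM, and 15.5, 20.7 and 16.2 CPM in Drug (edgeR adjusted p = 0.195 in SBM vs FM and 0.208 in Drug vs FM). Drug lay below FM in every library. SBM replicate 2 exceeded FM replicate 1, while SBM was below FM within each replicate number, and with that number as a block the adjusted p in SBM vs FM was 0.0595. Notch3, a receptor of vessel wall and other mural cells, was at 15.3 to 25.7 CPM, within 1.69-fold over all libraries, and notchl at 1.34 to 3.85 CPM.

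Ligands showed no common direction. Dla, a Delta ligand of low level, was at 0.985, 1.42 and 1.41 CPM in FM, 0.382, 0.632 and 0.506 CPM in SBM, and 0.483, 0.715 and 0.910 CPM in Drug. FM lay above both other groups in every library, with a log2 fold change of -1.32 in SBM (SE 0.39, edgeR adjusted p = 0.123, DESeq2 adjusted p = 0.0336) on at most 54 counts per library. Its relative dlb ran the other way, at 0.448 to 0.678 CPM in FM and 0.774 to 1.64 CPM in SBM (log2 fold change 1.17, SE 0.43, edgeR adjusted p = 0.181). Dll4, a Delta ligand of endothelium and of the mammalian intestinal crypt, was at 17.1, 10.2 and 19.2 CPM in SBM and 9.98, 10.5 and 11.04 CPM in Drug. SBM replicate 2 lay within the Drug range, and the log2 fold change was -0.56 (SE 0.23, adjusted p = 0.352). Jag1b was at 9.22, 16.2 and 15.3 CPM in FM, 7.71, 18.5 and 18.3 CPM in SBM, and 9.86, 8.21 and 10.2 CPM in Drug. Replicate 1 was thus the low library of both FM and SBM, and its values there were close to those of Drug. Dlc, the leading ligand, was at 22.0 to 36.4 CPM in FM, 15.7 to 27.2 CPM in SBM and 15.2 to 26.7 CPM in Drug, and jag2b and dld stayed within 1.77-fold and 2.03-fold over the libraries.

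Of 44 tested Notch pathway genes outside the 71 (ligand processing, receptor glycosylation, the secretase that cuts the receptor, the nuclear complex), none passed with edgeR in any comparison. An unadjusted p under 0.05 was found for 6 in SBM vs FM, 5 in Drug vs SBM and 7 in Drug vs FM. Over all genes the shares were 20.5%, 13.1% and 23.8%. DESeq2 called 1 lower in SBM vs FM, 1 lower in Drug vs SBM, and 1 higher and 1 lower in Drug vs FM. Neurl1aa, a relative of the Drosophila ligase that makes Delta active, was at 17.0, 22.1 and 21.7 CPM in SBM and 7.50, 12.5 and 9.84 CPM in Drug (edgeR adjusted p = 0.168), with no overlap. The glycosyltransferase lfng, which alters how receptors respond to Delta and Jagged, was at 8.29, 10.3 and 19.8 CPM in FM and 38.1, 27.3 and 35.3 CPM in Drug (adjusted p = 0.0983). Their Drug libraries stood below those of SBM for neurl1aa and above those of FM for lfng. In SBM vs FM the smallest p belonged to poglut1, which glucosylates Notch, at 5.72 to 9.02 CPM in FM and 2.61 to 4.14 CPM in SBM (adjusted p = 0.112).

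On the Wnt side, none of the 5 tested ligands passed with edgeR or DESeq2. Only 1 had an unadjusted p under 0.05, in Drug vs SBM (13.1% of all genes). Wnt5a was at 17.3, 18.98 and 18.4 CPM in FM, 23.9, 17.5 and 18.3 CPM in SBM, and 23.2, 15.6 and 18.8 CPM in Drug, all within 1.53-fold. Wnt2ba was at 6.54, 6.62 and 8.16 CPM in FM, 7.64, 12.5 and 11.1 CPM in SBM, and 4.69, 6.95 and 7.55 CPM in Drug. Its SBM libraries lay just above those of Drug without overlap (log2 fold change in Drug -0.70, SE 0.25, edgeR adjusted p = 0.296). Wnt5b stayed at 1.89 to 3.66 CPM. Wnt11 was at 0.876 to 1.56 CPM in FM and 0.298 to 0.695 CPM in SBM (adjusted p = 0.287), on at most 53 counts, and wnt7aa ranged from 0.0821 to 1.51 CPM.

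Among the receptors lrp6, a co-receptor for Wnt, was at 19.6, 24.2 and 19.7 CPM in FM, 19.7, 17.2 and 17.2 CPM in SBM, and 14.0, 15.9 and 14.4 CPM in Drug. Drug lay below both other groups in every library, and the log2 fold change from FM was -0.52 (SE 0.15, edgeR adjusted p = 0.0796, DESeq2 adjusted p = 0.0209). The paralogue lrp5 was at 62.1 to 83.1 CPM over all libraries, and its groups overlapped. Fzd5, the leading Frizzled, was at 18.7, 21.6 and 18.9 CPM in FM, 16.5, 11.1 and 11.02 CPM in SBM, and 17.9, 15.0 and 18.7 CPM in Drug. FM stood above SBM in every library (log2 fold change -0.62, SE 0.19, edgeR adjusted p = 0.138). The value was -0.84 without SBM replicate 1 (adjusted p = 0.0446), -0.52 without SBM replicate 2 (0.221) and -0.52 without SBM replicate 3 (0.360). Fzd1 was at 4.71, 10.2 and 4.57 CPM in FM, 3.61, 3.56 and 2.23 CPM in SBM, and 5.57, 6.52 and 5.52 CPM in Drug. SBM was below both other groups in every library, below FM with a log2 fold change of -1.05 (SE 0.35, adjusted p = 0.152) and below Drug, which was higher by 0.90 (SE 0.35, adjusted p = 0.323). Without FM replicate 2, the highest library, the difference from FM was -0.57.

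Fzd8a and fzd9b had the largest log2 fold changes against FM of the 49 tested genes, and FM replicate 3, the library with liver transcripts, stood far from the others in both. Fzd9b was at 15.8 CPM there and at 0.208 to 0.712 CPM in the other 8 libraries, and fzd8a at 8.72 CPM against 0.387 to 1.53 CPM. The Wnt ligand wnt9a showed the same pattern, at 6.48 CPM against 0.0347 to 0.229 CPM. The log2 fold changes in SBM vs FM were -3.96 for fzd9b (SE 1.40, edgeR adjusted p = 0.178) and -3.08 for fzd8a (SE 0.78, adjusted p = 0.0971), and DESeq2 called both. Without FM replicate 3 they were -0.43 (adjusted p = 0.752) and -1.58 (adjusted p = 0.143). In Drug vs FM the values were -3.53 (edgeR adjusted p = 0.163, DESeq2 0.0127) and -2.01 (edgeR adjusted p = 0.142, DESeq2 0.0435), and -0.51 for fzd8a without that library (adjusted p = 0.536), while that of fzd9b was -9.47e-05. The part of liver tissue in these values was not tested.

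None of the 5 tested genes of the R-spondin group passed with edgeR or DESeq2. Only 1 had an unadjusted p under 0.05, in SBM vs FM (20.5% of all genes). Rspo1 was at 7.61, 15.6 and 5.66 CPM in FM, 10.04, 16.3 and 6.02 CPM in SBM, and 5.46, 14.6 and 6.37 CPM in Drug. Replicate 2 was the highest library in all 3 groups, and the lowest edgeR adjusted p of the 3 comparisons was 0.852. The 11 smooth muscle genes, a list led by acta2 and tagln, were also highest in replicate 2, at 16580 CPM in FM, 25540 CPM in SBM and 14500 CPM in Drug, against 8884 to 16660 CPM in the other libraries. The part of muscle content in rspo1 was not tested. Rspo3, the main stromal R-spondin of the mouse gut, was at 3.74 to 5.69 CPM in FM, 2.03 to 5.28 CPM in SBM and 1.31 to 4.03 CPM in Drug, with replicate 2 highest in SBM and Drug.

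Rspo2 was at 2.98, 2.45 and 3.89 CPM in FM and 1.18, 2.27 and 1.37 CPM in SBM, without overlap (log2 fold change -0.95, SE 0.37, edgeR adjusted p = 0.200). Lgr4, a receptor for R-spondins, was at 9.41 to 16.5 CPM with overlapping groups. Znrf3, a ligase that removes Frizzled from the surface, was at 4.48 to 12.3 CPM and lowest in replicate 1 of each group.

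The 4 tested secreted inhibitors did not pass with edgeR or DESeq2 in any comparison. An unadjusted p under 0.05 was found for 1, in Drug vs SBM (13.1% of all genes). Sfrp1a, which binds Wnt ligands, was at 10.3 to 19.4 CPM and dkk3b at 6.09 to 11.8 CPM. Sfrp5 ranged from 1.20 to 10.3 CPM and was highest in replicate 2 of SBM and Drug. Dkk2 was at 1.56, 2.35 and 2.06 CPM in SBM and 5.26, 2.43 and 2.97 CPM in Drug. Drug stood above SBM in every library, by a small margin, with a log2 fold change of 0.83 (SE 0.36, edgeR adjusted p = 0.369), and 0.44 without Drug replicate 1.

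Beta-catenin itself came nearest to a call on the Wnt side. Ctnnb1 was at 160, 138 and 162 CPM in FM, 137, 105 and 111 CPM in SBM, and 106, 92.7 and 93.3 CPM in Drug. FM was above SBM and above Drug in every library, while SBM replicate 2 lay below Drug replicate 1. The margin over SBM was very small, with FM replicate 2 at 137.6 CPM and SBM replicate 1 at 137.4 CPM. From FM to Drug, at 153 ± 13.6 and 97.4 ± 7.56 CPM (SD, n = 3), the log2 fold change was -0.65 (SE 0.16, edgeR adjusted p = 0.0530). It was called in 12 of 21 alternative analyses, with adjusted p-values over all 21 from 0.00306 by DESeq2 to 0.165 without Drug replicate 3. Without single libraries it was called where SBM replicate 1 (0.0257) or SBM replicate 2 (0.0480) was left out and in no other case. In SBM vs FM it was -0.38 (SE 0.16, adjusted p = 0.220).

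Among the nuclear partners tcf7l2 was at 67.1, 59.14 and 38.2 CPM in FM, 44.4, 58.7 and 48.7 CPM in SBM, and 32.6, 37.9 and 43.2 CPM in Drug. Drug lay below SBM without overlap, and FM replicate 3 lay within the Drug range (log2 fold change in Drug vs FM -0.53, SE 0.22, edgeR adjusted p = 0.190). Ctnnbip1, which keeps beta-catenin from TCF, was at 10.75, 11.2 and 10.75 CPM in FM, 9.14, 8.33 and 8.91 CPM in SBM, and 10.9, 10.95 and 10.3 CPM in Drug. SBM was the low group in every library, by a log2 fold change of -0.31 from FM (SE 0.14, adjusted p = 0.237). Tcf7, also a T cell factor, was at 17.4 to 18.9 CPM in FM, 7.96 to 15.6 CPM in SBM and 11.2 to 16.6 CPM in Drug. A list of 17 leukocyte genes, led by mpx and coro1a and not limited to T cells, summed to 429 to 844, 241 to 395 and 256 to 723 CPM. The part of leukocyte content in tcf7 was not tested. Tcf7l1b stayed at 2.19 to 5.25 CPM.

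In the destruction complex axin2, which is itself switched on by beta-catenin and limits it, was at 55.3, 69.7 and 50.9 CPM in FM, 75.1, 23.9 and 29.5 CPM in SBM, and 37.3, 41.6 and 41.8 CPM in Drug. SBM held both the highest and the lowest value of all 9 libraries. The SBM vs FM log2 fold change was -0.45 (SE 0.38, edgeR adjusted p = 0.531). Without SBM replicate 2 or 3 it was -0.16 (adjusted p = 0.817) or -0.24 (0.813). It was -1.13 (adjusted p = 0.0334) without SBM replicate 1, the library with the high immediate early genes. That library stood apart from SBM replicates 2 and 3 in other lists too. Exocrine pancreas genes summed to 3189 CPM there against 637 and 631 CPM, and lysosome-rich enterocyte genes to 8717 against 26850 and 14930 CPM. The pancreas sums were 226 to 2322 CPM in FM and 519 to 2384 CPM in Drug. The lysosome-rich sums were 20220 to 26470 CPM in FM and 8710 to 11290 CPM in Drug, a range that held the value of SBM replicate 1. The part of any of these lists was not tested. Axin2 in Drug lay below FM in every library (log2 fold change -0.54, SE 0.38, adjusted p = 0.423). Apc, a scaffold of the same complex, was among the steadiest genes at 75.1 to 93.9 CPM, within 1.25-fold, and axin1 was at 1.77 to 7.46 CPM.

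**Figure D4:**
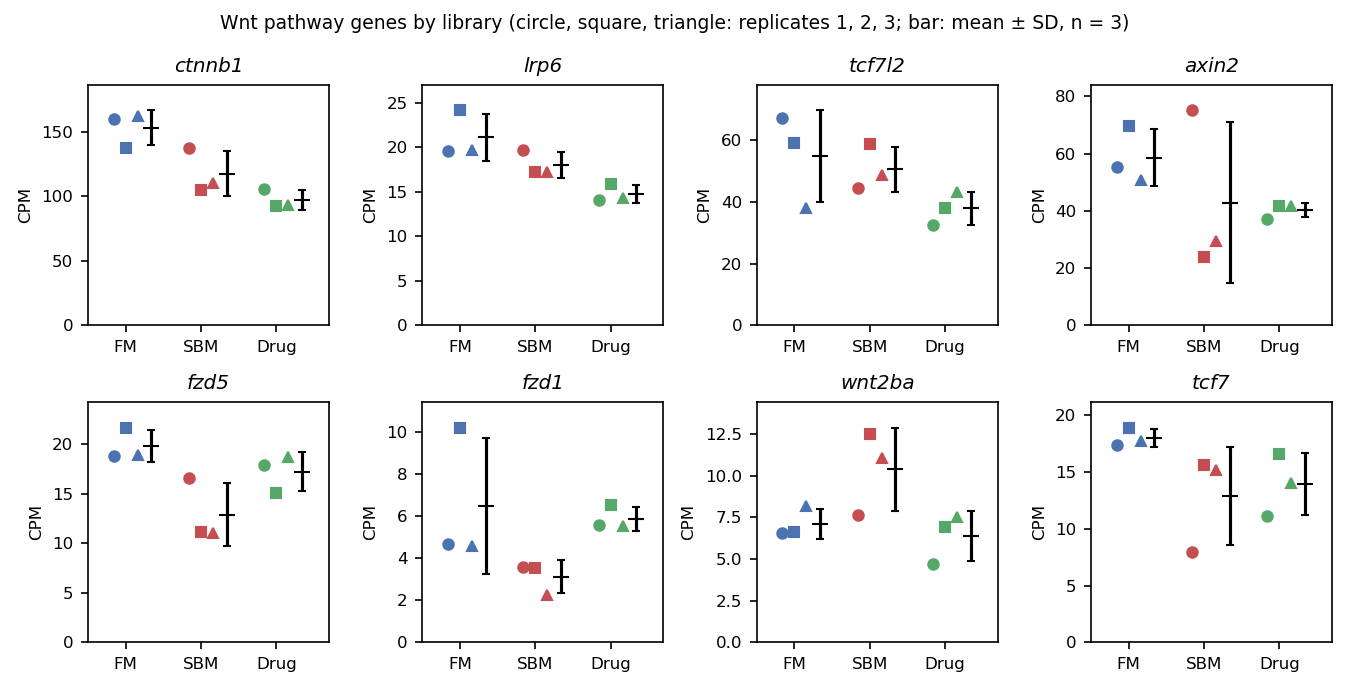
CPM (y axis) of 8 Wnt pathway genes in each library of FM, SBM and Drug, with the mean ± SD of 3 libraries beside each group. The means of ctnnb1 and lrp6 are lowest in Drug, those of fzd5 and fzd1 are lowest in SBM, and the axin2 values of SBM run from 23.9 to 75.1 CPM.

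Of 48 tested Wnt pathway genes outside the 71, none passed with edgeR in SBM vs FM or Drug vs SBM. There 16 and 8 had an unadjusted p under 0.05, beside 20.5% and 13.1% of all genes. DESeq2 called 3 higher and 1 lower in SBM vs FM and 1 higher in Drug vs SBM. In Drug vs FM 1 rose with edgeR and the other 47 did not pass, 2.08% beside 4.38% of all genes (2.86% higher). An unadjusted p under 0.05 was found there for 11 (23.8% of all genes), while DESeq2 called 1 higher and 4 lower. The gene that rose was apcdd1l, related to the Wnt inhibitor APCDD1 of mammals, at 0.739, 1.19 and 0.825 CPM in FM, 2.61, 3.59 and 2.59 CPM in SBM, and 3.55, 4.26 and 1.91 CPM in Drug. FM stood apart below both groups, with a log2 fold change of 1.82 to Drug (SE 0.36, edgeR adjusted p = 0.0315) and an adjusted p of 0.0708 in SBM vs FM. The call in Drug vs FM was lost without FM replicate 1 (adjusted p = 0.0944), FM replicate 2 (0.0884), FM replicate 3 (0.0630), SBM replicate 3 (0.0611), Drug replicate 1 (0.103), Drug replicate 2 (0.0806) or Drug replicate 3 (0.0590), and on log2(FPKM + 1), where the log2 fold change was 0.65 (0.0612).

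Other Wnt pathway genes with small p-values had no common direction. The cyclin ccnd1 was at 13.8, 14.1 and 13.3 CPM in FM, 7.19, 7.78 and 8.19 CPM in SBM, and 11.7, 12.3 and 8.02 CPM in Drug (edgeR adjusted p = 0.0750 in SBM vs FM). Notum1a, a secreted enzyme that inactivates Wnt ligands, was at 0.0884 to 0.657 CPM in FM, 1.22 to 2.53 CPM in SBM and 0.398 to 0.675 CPM in Drug (adjusted p = 0.129 in SBM vs FM and 0.280 in Drug vs SBM). The growth regulator myca was at 1.95, 1.92 and 1.49 CPM in SBM and 4.58, 4.49 and 5.05 CPM in Drug (adjusted p = 0.175). In each of these the SBM libraries stood outside the group it was compared with, low for ccnd1 and myca and high for notum1a, and none passed.

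**Figure D5:**
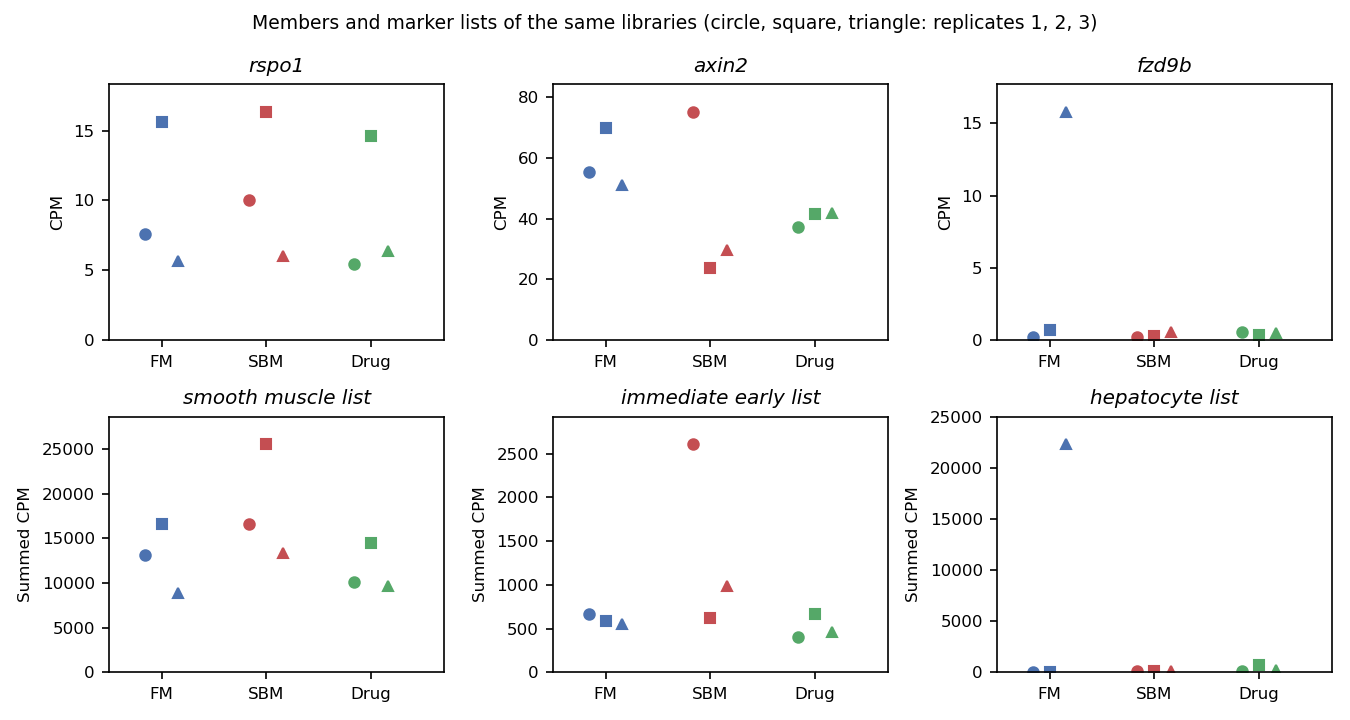
CPM of rspo1, axin2 and fzd9b (top row) and summed CPM of the smooth muscle, immediate early and hepatocyte lists (bottom row) in each library, with the replicate shown by the symbol. Rspo1 and the smooth muscle list are highest in the same library of each group, axin2 and the immediate early list in SBM replicate 1, and fzd9b and the hepatocyte list in FM replicate 3.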

How the data were processed

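The labels' protocols name TRIzol for RNA and the VAHTS Universal V6 kit for libraries. Of the tools in the submitters' processing notes (fastp, HISAT2, HTSeq, DESeq2, R 3.2.0) the roles are not stated. The notes list the mouse build mm10, although the gene symbols are those of fish, so the genome used is not known here. A hybrid's 2 parental alleles, near-identical gene copies and an unstated strand setting can shift single genes. The deposited counts are raw reads per gene, and the deposited FPKM are these counts scaled by depth and gene length (ratios equal within 5.13e-08 in 15780 genes). All 9 single-library files held the same values as the series table, and no libraries of a group were copies (chi-square per degree of freedom at least 56.1).

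The count test was edgeR 4.0.16, run in R 4.3.3 (filterByExpr, TMM scaling, robust quasi-likelihood fit of 3 groups on 9 libraries, 6 residual degrees of freedom). CPM use the TMM scale of the tested genes. Each SE is the log2 fold change divided by the root of its F statistic, without sign. Same-numbered libraries of FM and SBM deviated together (correlations 0.15 to 0.29 over genes). Correlations of Drug libraries with the same-numbered ones were also positive but less even. They were 0.0391 to 0.114 with FM and 0.0269 to 0.282 with SBM. Every value comes from the fit without pairs unless a replicate block is named. Alternatives used DESeq2 1.42.0, limma 3.58.1 on FPKM, other scalings and filters, a replicate block and left-out libraries. Scripts were checked on data made with known answers.

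Values in every library were given for genes past the threshold and, by role, for up to 3 with the smallest p and up to 2 with the highest FPKM. Genes outside the 71 were named for passing, for the smallest p-values of a list, or as the 2 most abundant of a cell type list. Genes and lists were chosen with earlier results of these data known.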

Additional observations from a re-analysis of the deposited data

How the results depend on the processing

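The count of pathway genes called was recomputed under 21 alternatives, of which 2 were chosen after seeing the data (edgeR's newer quasi-likelihood with adjusted deviances, and dropping both FM replicate 3 and SBM replicate 1). In SBM vs FM the count of 0 became 5 with DESeq2 and 2 without FM replicate 3 and SBM replicate 1, and ranged from 0 to 2 without single libraries. In Drug vs SBM the count of 1 became 0 with library totals alone, on the 2 groups alone and on log2(FPKM + 1) and log2(FPKM + 0.1), and ranged from 0 to 1 without single libraries. In Drug vs FM the count of 1 became 7 with DESeq2, 3 on the 2 groups alone, 2 with library totals alone, the stricter filter, without liver-restricted genes, on log2(FPKM + 1), on log2(FPKM + 0.1) and with adjusted deviances. Dropping FM replicate 3 and SBM replicate 1 gave 4. It ranged from 0 to 2 without single libraries. The causes were not tested. Correlations of same-numbered libraries were 0.0269 to 0.29, against -0.207 to 0.0319 for other numbers. Of 18 best matches 17 had the same number, a hint of pairing from the data and not from the labels. These matches are not independent, since each correlation counts for both of its libraries. The same-number correlations were over 0.1 in every pair of FM and SBM, but not of Drug with FM (0.0391 for replicate 3) or SBM (0.0269 for replicate 1). With the replicate number as a block the count was 0 in SBM vs FM, 0 in Drug vs SBM (hey1 adjusted p = 0.0589) and 3 in Drug vs FM (hey1, with ctnnb1 at adjusted p = 0.0319 and notch2 at 0.0450). The log2 fold changes of hey1 kept their sign in all 21 alternatives of each comparison, and the call held in 8 for Drug vs SBM and 15 for Drug vs FM. Fzd9b in Drug vs FM ranged from -4.09 without FM replicate 1 to 0.00055, a change of sign, with both FM replicate 3 and SBM replicate 1 dropped. Over all genes, calls ranged from 0 to 1597 in SBM vs FM, 0 to 614 in Drug vs SBM and 10 to 2431 in Drug vs FM.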

Other observations

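The library with the highest value of a gene was an FM library for 23 of the 49 tested pathway genes, an SBM library for 19 and a Drug library for 7. Those shares are 46.9%, 38.8% and 14.3%, beside 35.8%, 38.2% and 26% of all genes tested, and were given no test. The lowest value lay in an FM library for 9 of the 49 genes, in an SBM library for 20 and in a Drug library for 20. Those shares are 18.4%, 40.8% and 40.8%, beside 33.4%, 39.1% and 27.5% of all genes tested. SBM replicate 1 and Drug replicate 1 held 12 and 13 of these lowest values. Axin1, hes6, notch1a, rspo1 and tcf7 were highest in replicate 2 of every group, and lgr4, lrp5 and notch2 in replicate 3 of every group. The matching shares of all genes by single library or replicate number were not computed, so these counts have no background. The labels do not say what the numbers stand for.

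Genes of the cell fates that Notch separates were also listed. Their counts at an unadjusted p under 0.05 stand beside 20.5% of all genes in SBM vs FM, 13.1% in Drug vs SBM and 23.8% in Drug vs FM. Their edgeR calls stand beside 0.592%, 0.0395% and 4.38% of all genes in the same order. Of 7 tested genes of the secretory lineage, agr2, needed for mucin folding, rose in Drug vs FM with edgeR by a log2 fold change of 0.99 (SE 0.19, adjusted p = 0.0292), from a mean of 74.2 to one of 148 CPM, and 6 did not pass. The other 6 had negative log2 fold changes (median of the 7 -0.40), and DESeq2 called 1 higher and 1 lower. The goblet cell factor foxa3 had means of 42.1 and 21.7 CPM (adjusted p = 0.109). In SBM vs FM and Drug vs SBM none passed, 4 and 2 had an unadjusted p under 0.05, and DESeq2 called 1 higher and none. Enteroendocrine genes were listed apart, and none of 11 tested passed with edgeR. At an unadjusted p under 0.05 there were 2 in SBM vs FM, 0 in Drug vs SBM and 2 in Drug vs FM. Their median log2 fold changes were 0.68, -0.15 and 0.42, with 10, 4 and 9 of the 11 positive. DESeq2 called 1 higher, none and 3 higher. None of 7 tested stem and progenitor genes passed with edgeR or DESeq2 in any comparison. At an unadjusted p under 0.05 there was 1 in Drug vs FM and none in the others. With untested genes included, the list's 9 genes summed to 41.4 to 57.96 CPM in FM, 37.3 to 60.2 CPM in SBM and 44.6 to 46.9 CPM in Drug. On the absorptive side, 1 of 8 tested enterocyte genes rose with edgeR in SBM vs FM and 3 of 8 in Drug vs FM, fabp2 among the latter with a log2 fold change of 3.197 (SE 0.49, adjusted p = 0.0183), and none passed in Drug vs SBM, where 3 had an unadjusted p under 0.05. DESeq2 called 2, 4 and 1 higher in these comparisons. Of 11 genes of lysosome-rich enterocytes, which take up protein in fish, 1 fell in Drug vs FM with edgeR, and DESeq2 called 1 higher and 4 lower. None of the 11 passed with edgeR in SBM vs FM or Drug vs SBM, with 0 and 4 at an unadjusted p under 0.05 and none and 1 lower by DESeq2.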
